A study of Rattus norvegicus with 8 samples.

Results

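H19, Igf2, Igf2r, Mest, Plagl1, Peg3, Peg10, Cdkn1c, Grb10 and Dlk1 are imprinted genes of prenatal growth, and their transcripts were followed through 8 rat liver libraries. They were taken by gene name from the deposited table of read counts. All 10 names have 1 row each among its 30562 genes, and all 10 were among the 16591 genes tested.

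In an imprinted gene, the copy inherited from one parent is silenced by a mark set in the germ line, usually DNA methylation, so the active RNA comes from the other copy. Many imprinted genes set the size of the fetus: paternally expressed Igf2 encodes a growth factor, and maternally expressed Igf2r, Grb10, H19 and Cdkn1c restrain growth in the mouse. In rodent liver Igf2, H19 and Dlk1 are abundant before birth and are shut down in the weeks after it. The counts do not resolve the parental copies, so they give total RNA from both.

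Each of the 4 groups had 2 libraries, each from the liver of a separate rat, all labelled male Wistar, on standard chow, with a starting weight of 160 g. The AT+HCB group received atorvastatin and hexachlorobenzene. The HCB group received hexachlorobenzene alone, a chlorinated fungicide and porphyria-causing pollutant, in gavage doses of 100 mg/kg, given on 3 occasions weekly over 30 days. The AT group received atorvastatin alone, a statin that blocks cholesterol synthesis, in the drinking water, at a stated 5 mg/kg a day; the stated recipe of 5 mg per 20 mL and rat amounts to 31.25 mg/kg at that weight, so the dose is uncertain. The Control group received vehicle. All rats were killed on day 37, and 2 of the 5 rats in each group were sequenced. AT+HCB and HCB libraries are called HCB-labelled here, and AT and Control libraries unexposed.

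The libraries held 29.4 to 52.0 M reads assigned to genes. The labels and the RNA disagree on a point that touches every result here. The summed level of 4 Y-linked genes was 135 to 217 CPM, a read count scaled to the TMM-normalised library size, in the HCB-labelled libraries and 0.900 to 1.90 CPM in the unexposed libraries, although all rats are labelled male. The 5 rows of adult male liver markers summed to 4780 to 6765 CPM in HCB-labelled and 137 to 281 CPM in unexposed libraries, and 4 of them were higher in every HCB-labelled library. The other, 1 of 2 rows named Cyp2a2, overlapped, at 234 ± 35.1 CPM in HCB-labelled and 198 ± 62.5 CPM in unexposed libraries (SD, n = 4 each), and held most of the unexposed sum. Markers of hepatocytes, which make up most of the liver, summed to 109332 to 176629 CPM in HCB-labelled and 76450 to 146485 CPM in unexposed libraries, most of it from Alb and Tf, which overlapped. Of the other 3, Apoa1 was lower in every HCB-labelled library, Ttr and Serpina1 were higher, and Serpina1 was low in both, at 9.15 ± 1.08 CPM in HCB-labelled and 1.58 ± 0.375 CPM in unexposed libraries. Hepatoblast markers, led by Afp, summed to 83.4 to 167 CPM in HCB-labelled and 11449 to 29802 CPM in unexposed libraries, and 3 of the 4 were lower in every HCB-labelled library, while Epcam was higher in every one, at 11.04 ± 4.00 CPM in HCB-labelled and 5.50 ± 1.57 CPM in unexposed libraries. All 7 erythroid markers were lower as well, with sums of 10.2 to 52.0 CPM in HCB-labelled and 142 to 643 CPM in unexposed libraries. All 6 neutrophil markers were lower, at 0.401 to 3.17 CPM in HCB-labelled and 129 to 218 CPM in unexposed libraries, and so were all 5 proliferation markers, at 14.4 to 41.5 CPM in HCB-labelled and 207 to 513 CPM in unexposed libraries. Of 9 mesenchyme markers 5 were lower, with sums of 471 to 645 CPM in HCB-labelled and 797 to 3508 CPM in unexposed libraries, and of 5 endothelium markers Stab2 was lower and Kdr higher, with sums of 552 to 661 CPM in HCB-labelled and 666 to 863 CPM in unexposed libraries. No listed marker was at 0 in all libraries of either side. Beside these marker counts, 25.0% of all genes tested were lower and 21.8% higher in every HCB-labelled library. The effect of hexachlorobenzene cannot be told apart from whatever else differs between these libraries. In bulk liver, fewer cells of a type and less RNA per cell cannot be told apart either.

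All 10 imprinted growth genes were lower in every HCB-labelled library than in every unexposed library. The members were chosen on this difference, so it is described without a test, and nothing is read from its background: 25.0% of the genes tested were lower in the same sense and 21.8% were higher. In HCB against Control, 7 of the 10 were at least 8-fold lower (5.35% of the genes tested) and 9 at least 2-fold lower (22.4%). In AT+HCB against AT, 8 were at least 8-fold lower (7.20%) and 9 at least 2-fold lower (25.4%). The median log2 fold change of the members was -4.51 in HCB against Control, where that of all genes tested was -0.09, and -5.07 in AT+HCB against AT, where it was -0.11. Without the AT replicate 2 library the members' median in AT+HCB against AT was -4.10. The members differed widely among themselves: mean levels in the HCB-labelled libraries ran from 0.418% of the unexposed mean for H19 to 58.3% for Igf2r.

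**Figure D1:**
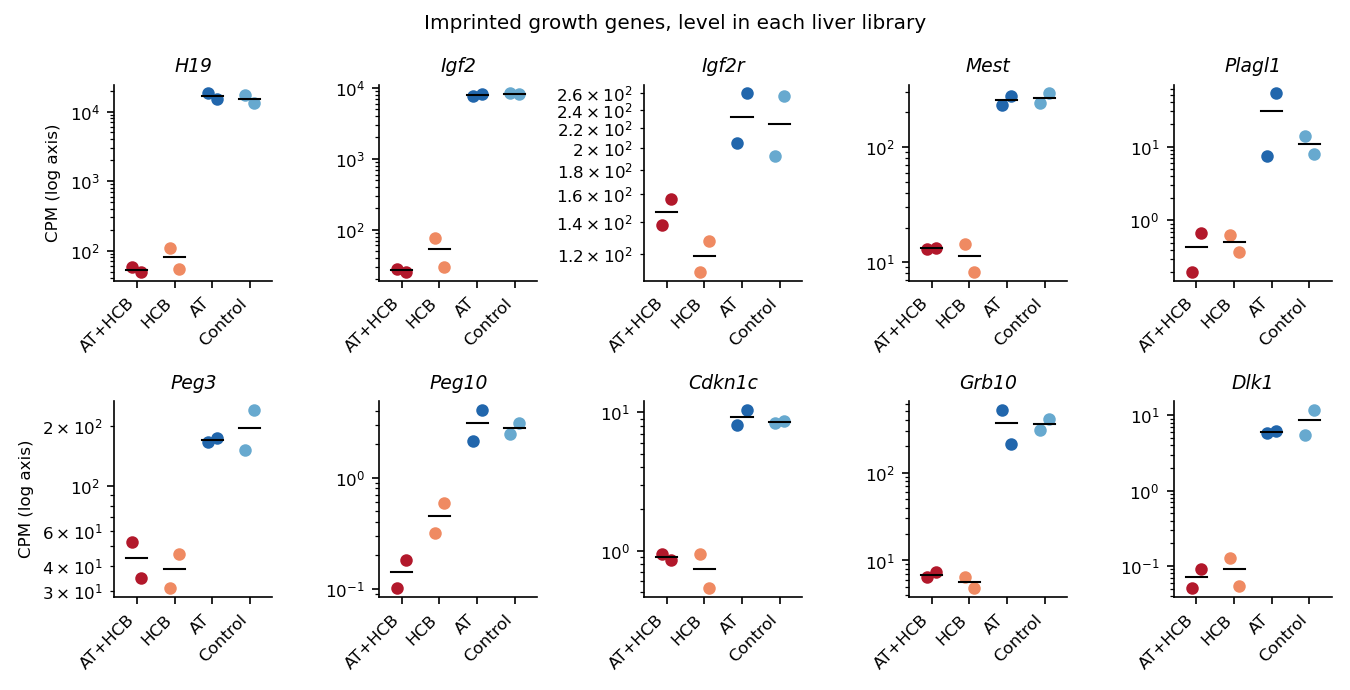
Level of each member in each library, in CPM on log axes with a separate range per panel; points are libraries and black lines are group means, in the order AT+HCB, HCB, AT and Control. In every panel the 4 HCB-labelled points lie below the 4 unexposed points, with the narrowest gap in Igf2r.

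H19, a long noncoding RNA made from the maternal copy, lies on mRatBN7.2 at chr1:197730698-197733134, minus strand, and the table classes it as protein coding, whereas RefSeq classes it as a long noncoding RNA. It stood at 57.5 and 49.3 CPM in AT+HCB and 107.9 and 53.7 CPM in HCB livers, against 18238.5 and 15362 CPM in AT and 17240 and 13363 CPM in Control livers. The lowest unexposed library was 124 times the highest HCB-labelled one. Its log2 fold change was -7.57 (SE 0.58) in HCB against Control and -8.30 (SE 0.60) in AT+HCB against AT. Per kilobase of exon, H19 was the most abundant of the 10 in both sets of libraries, at 32.0 ± 13.1 CPM per kb in HCB-labelled and 7654 ± 1026 CPM per kb in unexposed libraries (SD, n = 4 each).

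Igf2, the insulin-like growth factor that drives fetal growth, lies 81.3 kb from H19 on the same strand, at chr1:197814410-197823018. It stood at 28.02 and 25.4 CPM in AT+HCB and 75.9 and 29.8 CPM in HCB livers, against 7768 and 8103 CPM in AT and 8351 and 8085 CPM in Control livers. The unexposed libraries lay within a narrow band, whereas HCB replicate 1 held more Igf2, and more H19, than the other 3 HCB-labelled libraries. Without that library the log2 fold change in HCB against Control was -8.08 for Igf2 and -8.13 for H19, beside -7.28 (SE 0.58) and -7.57 with it. In AT+HCB against AT, Igf2 had a log2 fold change of -8.21 (SE 0.61).

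H19 and Igf2 share enhancers and are expressed from opposite parental copies under control of 1 methylated region between them. Together they took 0.00664% and 0.00639% of assigned reads in AT+HCB and 0.0151% and 0.00744% in HCB livers, against 3.70% and 2.58% in AT and 3.34% and 2.16% in Control livers. Their ratio per kilobase of exon moved far less: H19 was 4.46 and 4.22 times Igf2 in AT+HCB, 3.09 and 3.92 times in HCB, 5.11 and 4.13 times in AT and 4.49 and 3.597 times in Control livers. These ratios overlapped between HCB-labelled and unexposed libraries, although each RNA alone differed by more than 100-fold.

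**Figure D2:**
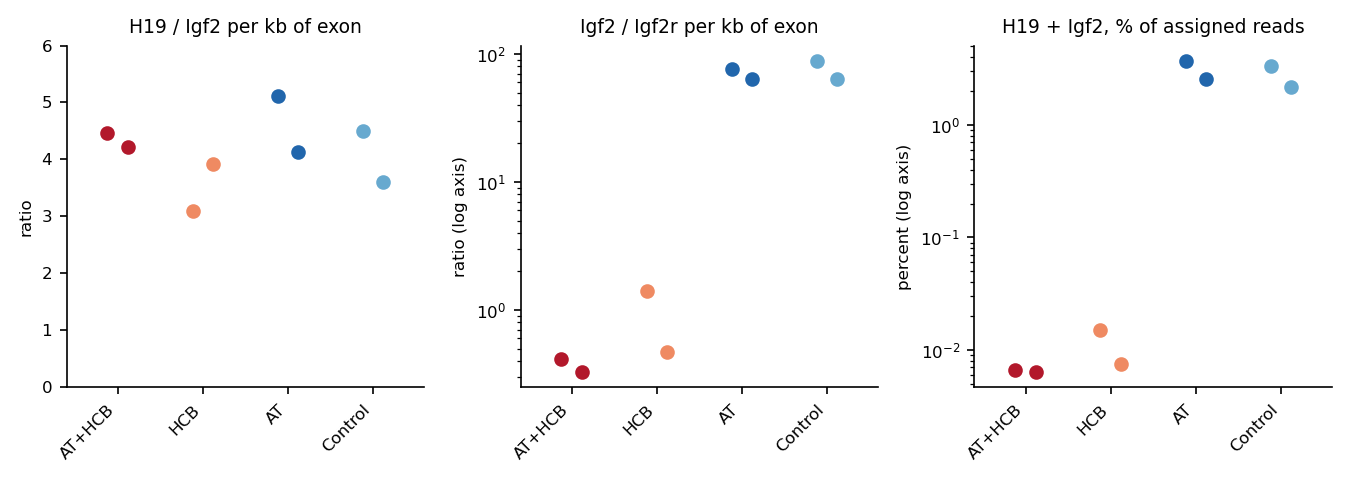
Left, H19 over Igf2 per kilobase of exon; middle, Igf2 over Igf2r per kilobase of exon on a log axis; right, H19 plus Igf2 as a percentage of assigned reads on a log axis. Points are libraries. The left ratio spans 3.09 to 5.11 with overlapping groups, while the other panels separate HCB-labelled from unexposed libraries.

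A microRNA lies in each of these genes: Mir675 overlaps an H19 exon, and Mir483 lies in an intron of Igf2. Their mature forms are printed from RefSeq (GRCr8), with the seed, bases 2 to 8, in capitals, because the hairpins are read out of the H19 and Igf2 transcripts.
miR-675-5p: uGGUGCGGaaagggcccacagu
miR-675-3p: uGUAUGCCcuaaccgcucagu
miR-483-5p: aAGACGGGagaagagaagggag
miR-483-3p: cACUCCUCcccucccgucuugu
The Mir483 row (chr1:197818396-197818468) held 0 reads in all 4 HCB-labelled libraries, against 36 and 5 reads in AT and 33 and 1 in Control livers. The Mir675 row (chr1:197732275-197732358) held 0 reads in all 8 libraries, but reads over that hairpin also fall in an H19 exon and would be ambiguous to the counter, so its 0 says nothing of the hairpin. Neither row measures mature microRNA, which these libraries of 150-base reads were not made to capture.

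Igf2r, the receptor that carries IGF2 to the lysosome for breakdown, lies at chr1:47979109-48067501 and differed least. It stood at 138 and 156 CPM in AT+HCB and 110.0 and 128 CPM in HCB livers, against 205 and 259.7 CPM in AT and 192 and 256 CPM in Control livers. The lowest unexposed library was 1.23 times the highest HCB-labelled one, the narrowest gap of the 10 members. Its log2 fold change was -0.91 (SE 0.27) in HCB against Control and -0.66 (SE 0.27) in AT+HCB against AT. The ligand and its clearing receptor stood in different proportions: Igf2 per kilobase was 0.413 and 0.329 times Igf2r in AT+HCB and 1.40 and 0.472 times in HCB livers, against 76.9 and 63.2 times in AT and 88.1 and 63.9 times in Control livers.

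Grb10, an adaptor that binds the insulin and IGF1 receptors and damps their signal, lies at chr14:86495054-86602806, minus strand. It stood at 6.44 and 7.40 CPM in AT+HCB and 6.46 and 4.81 CPM in HCB livers, against 515 and 209 CPM in AT and 305 and 403 CPM in Control livers. The HCB-labelled libraries were close to each other, and both AT libraries lay outside the range of the Control libraries, on opposite sides. The log2 fold change was -5.98 (SE 0.47) in HCB against Control and -5.71 (SE 0.47) in AT+HCB against AT, and -4.91 in AT+HCB against AT without AT replicate 1.

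Among regulators, Plagl1 encodes a zinc-finger transcription factor that in the mouse controls other imprinted genes, Igf2, H19, Cdkn1c and Dlk1 among them. It lies at chr1:7477177-7517228 and stood at 0.201 and 0.675 CPM in AT+HCB and 0.633 and 0.374 CPM in HCB livers, against 7.54 and 52.5 CPM in AT and 13.9 and 8.00 CPM in Control livers. These are 38 reads over both AT+HCB and 34 over both HCB libraries, against 2845 over both AT and 886 over both Control libraries. AT replicate 2 stood far above the other 7 libraries, and the spread within groups, 1.19 on the log2 scale, was the widest of the 10 members. The log2 fold change was -4.45 (SE 0.94) in HCB against Control and -6.07 (SE 0.98) in AT+HCB against AT, and -4.07 in the last comparison without AT replicate 2. Leaving out AT replicate 1, AT+HCB replicate 1 or AT+HCB replicate 2 gave -6.88, -5.44 and -7.18 there. AT replicate 2 also held the highest summed mesenchyme markers, 3508 CPM, where the other unexposed libraries held 797 to 850.5 CPM. The part of these markers in its Plagl1 level was not tested.

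Cdkn1c encodes p57, a cyclin-dependent kinase inhibitor that arrests the cell cycle, and lies 832 kb from Igf2 at chr1:198655407-198658048. It stood at 0.952 and 0.855 CPM in AT+HCB and 0.950 and 0.534 CPM in HCB livers, against 8.09 and 10.4 CPM in AT and 8.43 and 8.71 CPM in Control livers. The unexposed libraries differed little, and the log2 fold change was -3.54 (SE 0.38) in HCB against Control and -3.35 (SE 0.37) in AT+HCB against AT.

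Mest, an enzyme-like protein of the alpha/beta hydrolase fold made from the paternal copy, lies at chr4:59354447-59366145. It stood at 13.1 and 13.2 CPM in AT+HCB and 14.3 and 8.22 CPM in HCB livers, against 234 and 277 CPM in AT and 241 and 293 CPM in Control livers. Its log2 fold change was -4.57 (SE 0.33) in HCB against Control and -4.28 (SE 0.33) in AT+HCB against AT. Copg2, a coat protein gene whose span overlaps Mest, went the other way, at 70.3 ± 8.24 CPM in HCB-labelled and 39.6 ± 4.44 CPM in unexposed libraries (SD, n = 4 each). Counting used no strand, so reads from the overlap cannot be split by strand. Of the 5 listed genes around Mest, 4 were lower and 1, Copg2, was higher in every HCB-labelled library (25.0% and 21.8% of all genes tested). Cep41 was lower, and so were Cpa4, Klf14 and Cpa1, at unexposed means of 1.19 CPM or less.

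Peg3, a paternally expressed zinc-finger protein, lies at chr1:67097904-67124671. It stood at 52.8 and 34.6 CPM in AT+HCB and 30.7 and 46.0 CPM in HCB livers, against 167 and 174 CPM in AT and 151 and 242 CPM in Control livers. The log2 fold change was -2.36 (SE 0.33) in HCB against Control and -1.96 (SE 0.33) in AT+HCB against AT, so Peg3 kept 22.4% of its unexposed level, more than any member but Igf2r.

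Peg10, a paternally expressed gene derived from a retrotransposon, lies at chr4:32848493-32852621 and was the least abundant member per kilobase in unexposed libraries. It stood at 0.100 and 0.180 CPM in AT+HCB and 0.317 and 0.587 CPM in HCB livers, against 2.13 and 4.09 CPM in AT and 2.46 and 3.15 CPM in Control livers. These are 12 reads over both AT+HCB libraries and 32 over both HCB libraries, against 286 over both AT and 230 over both Control libraries. The log2 fold change was -2.62 (SE 0.57) in HCB against Control and -4.43 (SE 0.63) in AT+HCB against AT.

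Dlk1, a membrane protein of the Notch ligand family that marks fetal liver progenitors, lies at chr6:128410316-128417522 and was nearly absent from HCB-labelled livers. It stood at 0.0501 and 0.0900 CPM in AT+HCB and 0.127 and 0.0534 CPM in HCB livers, against 5.89 and 6.19 CPM in AT and 5.43 and 11.8 CPM in Control livers. Only 6 reads, or 3 read pairs, were counted over both AT+HCB libraries and 6 over both HCB libraries. From these counts Control was 100.4 times HCB, with an exact 95% interval of 34.1 to 489, and AT was 85.1 times AT+HCB, with an interval of 28.8 to 415; the intervals cover counting error only. The fitted log2 fold change in HCB against Control was -6.57, and it was -7.24 without HCB replicate 1 and -5.87 without Control replicate 2.

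**Figure D3:**
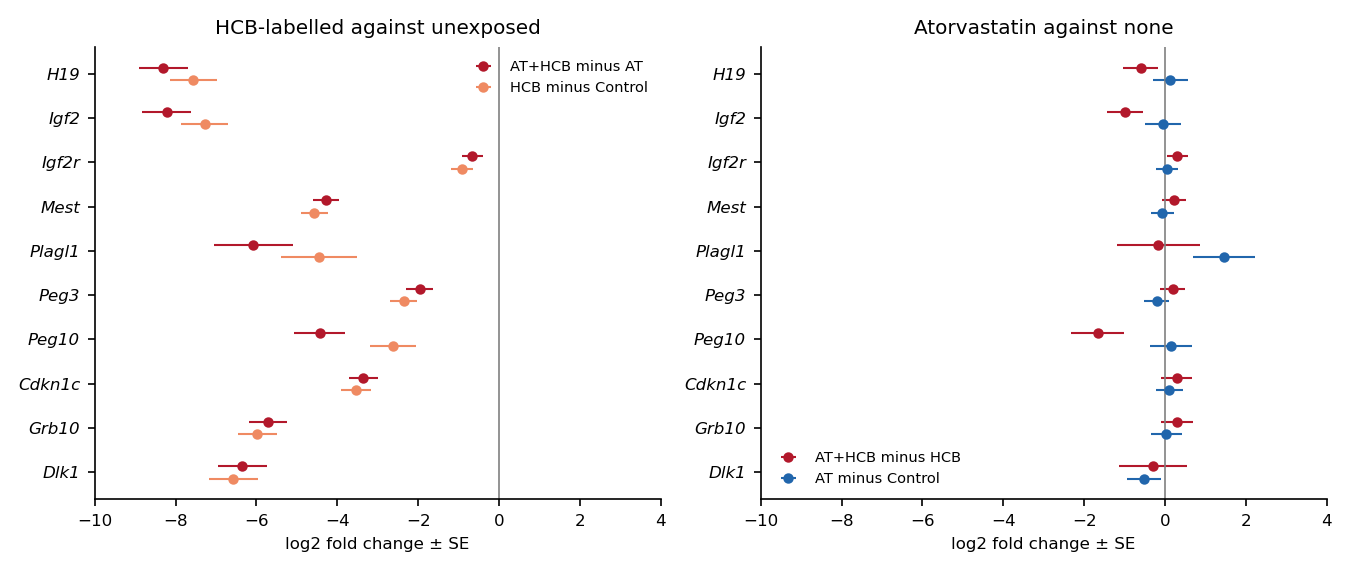
Fitted log2 fold change ± SE of each member from the model of all 8 libraries. Left, HCB-labelled against unexposed, from -8.30 for H19 to -0.66 for Igf2r; right, atorvastatin against none on the same axis, where the values lie between -1.67 for Peg10 and 1.46 for Plagl1.

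The order of the members changed along with their levels. Per kilobase of exon, the HCB-labelled libraries ran from H19 through Igf2r, Igf2, Mest, Peg3, Grb10, Cdkn1c, Peg10 and Plagl1 to Dlk1. Igf2r and Igf2, Mest and Peg3, Peg10 and Plagl1, and Plagl1 and Dlk1 were neighbours whose libraries overlapped. In the unexposed libraries the order was H19, Igf2, Mest, Grb10, Igf2r, Peg3, Dlk1, Cdkn1c, Plagl1 and Peg10. There Mest and Grb10, Igf2r and Peg3, Dlk1 and Cdkn1c, and Cdkn1c and Plagl1 overlapped. Dlk1 thus stood last in HCB-labelled libraries, at 0.04996 ± 0.0224 CPM per kb, and seventh in unexposed libraries, at 4.58 ± 1.88 CPM per kb (SD, n = 4 each).

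Atorvastatin, the factor that did not choose the members, was tested in 4 contrasts across all 16591 genes with edgeR's quasi-likelihood test and Benjamini-Hochberg adjustment. The test called 0 genes in AT against Control (0.00% of genes tested), 0 in AT+HCB against HCB (0.00%), 0 for the average effect of atorvastatin (0.00%) and 0 for its interaction with HCB (0.00%). Genes with an unadjusted p under 0.05 numbered 181, 857, 601 and 391 in these contrasts, and DESeq2 called 2, 49, 4 and 5. Without AT replicate 1 edgeR called 33, 1, 9 and 5, and without HCB replicate 2 or AT+HCB replicate 2 it called 6 in AT+HCB against HCB. No member was called in any of the 4 by edgeR with its filter on low counts. The same test was run on simulated counts with equal numbers of planted 2-fold and 4-fold changes. It called 7 of the 2-fold and 52 of the 4-fold changes in AT against Control. The counts were 6 and 54 in AT+HCB against HCB, and 31 and 77 for the average effect. False calls numbered 1, 6 and 8 in these contrasts. Every group was simulated at the same base level per gene, with no HCB difference. The rates in AT+HCB against HCB thus do not apply to members with few reads in HCB-labelled libraries. Most planted 2-fold changes were missed, so 0 calls do not show that atorvastatin had no effect.

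In AT against Control no member separated both AT libraries from both Control libraries in either direction, where 10.6% of genes tested were above and 10.5% below. H19 had a log2 fold change of 0.13 (SE 0.44, 95% interval -0.82 to 1.09) and Igf2 of -0.05 (SE 0.44, interval -1.02 to 0.92). The intervals of Igf2r (-0.53 to 0.63), Mest (-0.69 to 0.57), Peg3 (-0.89 to 0.49), Cdkn1c (-0.61 to 0.83) and Grb10 (-0.80 to 0.86) allow changes of less than 2-fold in either direction. Those of Dlk1 (-1.43 to 0.40, around -0.51) and Peg10 (-0.97 to 1.27) reach past 2-fold. Plagl1 had the largest value, 1.46, with an SE of 0.76, an interval of -0.27 to 3.18 and an edgeR adjusted p of 1. Without AT replicate 2 it was -0.54, and with no filter on low counts it was called, at an edgeR adjusted p of 0.00223.

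In AT+HCB against HCB, Igf2r was higher in both AT+HCB libraries (17.9% of genes tested were), and Igf2 and Peg10 were lower in both (16.9% were). For Peg10 the log2 fold change was -1.67, with an SE of 0.64, an edgeR adjusted p of 0.892 and an unadjusted p of 0.025. Its interaction term was -1.82, with an SE of 0.82, an edgeR adjusted p of 1 and an unadjusted p of 0.0484. For Igf2 the log2 fold change was -0.98, with an SE of 0.45, an interval of -1.97 to 0.00473 and an edgeR adjusted p of 0.892, and with HCB replicate 1 the high library; without that library it was -0.15. Those of Peg10 were the 2 unadjusted p-values under 0.05 among the 10 members in these 4 contrasts. Igf2r had a log2 fold change of 0.31 (SE 0.26, interval -0.28 to 0.89). H19 had one of -0.60 (interval -1.56 to 0.37). The intervals of Plagl1 (-2.50 to 2.16), Dlk1 (-2.14 to 1.55), Cdkn1c (-0.54 to 1.13) and Grb10 (-0.57 to 1.17) also reach past 2-fold. The members' median log2 fold change was 0.04 in AT against Control and 0.01 in AT+HCB against HCB, beside 0.01 and 0 over all genes tested.

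Within 1 Mb of the members, the share of tested genes lower in every HCB-labelled library, 25.0% over all genes tested, ran from 14.3% around Peg3 to 45.5% around Plagl1, leaving aside Dlk1, whose neighbours are mostly the small RNA rows described below. Beside Cdkn1c, which was low in HCB-labelled livers, the imprinted transporter Slc22a18, 13.7 kb away, stood at 203 ± 30.3 CPM in HCB-labelled and 75.2 ± 17.1 CPM in unexposed libraries (SD, n = 4 each). Phlda2, an imprinted growth restrainer of the placenta 38.8 kb from Cdkn1c, was higher too, with a log2 fold change of 2.01 (SE 0.84) in HCB against Control, at 0.903 ± 0.245 CPM in HCB-labelled and 0.148 ± 0.0887 CPM in unexposed libraries. Of the 8 listed genes around Cdkn1c, 0 were lower and 3 higher in every HCB-labelled library (25.0% and 21.8% of all genes tested).

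Ddc, the aromatic amino acid decarboxylase 25.8 kb from Grb10, stood at 76.6 ± 14.1 CPM in HCB-labelled and 19.1 ± 2.51 CPM in unexposed libraries (SD, n = 4 each, also below). Around Peg10, the paraoxonase genes Pon1, Pon2 and Pon3 were higher in every HCB-labelled library, with log2 fold changes of 3.00, 1.30 and 2.26 in HCB against Control, while Sgce, the sarcoglycan gene 6.24 kb from Peg10, was lower at -1.18 (SE 0.40). Beside Peg3, Zim1, a zinc-finger gene 7.48 kb away, had 4 reads over both HCB libraries and 163 over both Control libraries, a ratio of Control to HCB of 34.7 with an interval of 9.30 to 291; Usp29, 0.218 kb from Peg3, overlapped, at 3.42 ± 0.537 CPM in HCB-labelled and 3.46 ± 0.573 CPM in unexposed libraries. Near H19 and Igf2, Mrpl23, a mitochondrial ribosome gene 35.5 kb from H19, overlapped, at 13.1 ± 1.94 CPM in HCB-labelled and 16.7 ± 3.86 CPM in unexposed libraries. Ctsd, a lysosomal protease gene, was higher, at 170.4 ± 12.96 CPM in HCB-labelled and 118 ± 20.4 CPM in unexposed libraries. Of the 5 tested genes listed near H19 and Igf2, 2 were lower, Ins2 and Lsp1, and 1 was higher in every HCB-labelled library (25.0% and 21.8% of all genes tested). Sgce and Mrpl23 were chosen for naming after their values were seen.

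**Figure D4:**
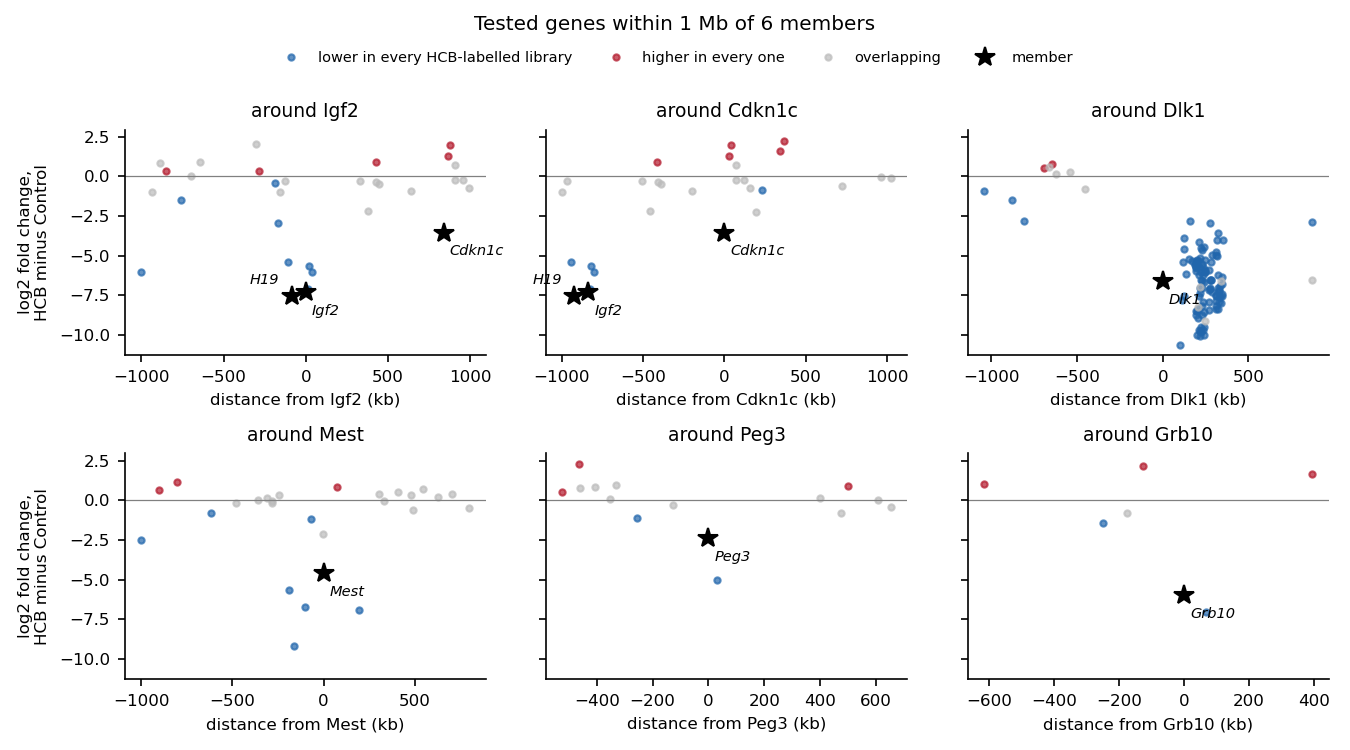
Log2 fold change in HCB against Control of every tested gene within 1 Mb of 6 members, by distance in kb; stars are members, and colours show whether a gene was lower, higher or overlapping between HCB-labelled and unexposed libraries. Low and high genes mix around Igf2, Cdkn1c, Mest, Peg3 and Grb10, while on 1 side of Dlk1 nearly every row is low.

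The 868 kb between Dlk1 and Dio3 hold 129 rows of the table: 45 microRNAs, 83 small nucleolar RNAs and the retrotransposon-derived gene Rtl1. In the mouse these small RNAs are processed from long maternal transcripts of which Meg3 is the best known, itself not analysed here. The summed level of all 129 rows was 0.627 and 0.630 CPM in AT+HCB and 3.42 and 1.01 CPM in HCB livers, against 314 and 103 CPM in AT and 178 and 196 CPM in Control livers. Reads over the 45 microRNA rows numbered 4 and 8 in AT+HCB and 23 and 5 in HCB livers, against 3882 and 727 in AT and 1586 and 745 in Control livers. Rtl1, opposite in strand to the small RNAs in the mouse, stood at 0.246 ± 0.122 CPM in HCB-labelled and 37.6 ± 33.6 CPM in unexposed libraries (SD, n = 4 each). Counting used no strand, so reads from the opposite strand within its exons cannot be told from its own. Dio3, the enzyme that inactivates thyroid hormone, had 6 reads over both HCB libraries and 51 over both Control libraries. The rows that passed the filter did so mostly through the unexposed libraries, and rows of 1 long transcript are not independent, so their count is no support for a difference.

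The share of reads outside annotated exons was 7.46% and 9.48% in AT+HCB and 10.8% and 11.4% in HCB livers, against 34.0% and 19.5% in AT and 27.7% and 15.3% in Control livers. AT replicate 1 and Control replicate 1 had the highest shares of their groups and also the most reads over the microRNA rows. The part of this share in the small RNA levels was not tested.

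The 5p forms of the 4 hairpins with the most reads among those matched to a mature sequence here, Mir770, Mir1188, Mir493 and Mir673, and 5p forms that share a seed, are printed from RefSeq (GRCr8) with the seed in capitals, so that the low region can be read as sequence.
miR-770-5p: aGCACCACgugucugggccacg
miR-1188-5p: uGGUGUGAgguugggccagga
miR-493-5p: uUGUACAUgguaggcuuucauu
miR-673-5p: cUCACAGCuccgguccuuggag
miR-494-5p: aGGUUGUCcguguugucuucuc
miR-496-5p: aGGUUGUCcaugguguguuc
miR-410-5p: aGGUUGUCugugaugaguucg
miR-376b-5p: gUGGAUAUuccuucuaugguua
miR-376c-5p: gUGGAUAUuccuucuauguuu
Mir770 (chr6:128515835-128515928) had 0 and 2 reads in AT+HCB and 0 and 0 in HCB livers, against 808 and 72 in AT and 318 and 69 in Control livers. Mir1188 had 0 and 0 reads in AT+HCB and 3 and 2 in HCB livers, against 339 and 72 in AT and 150 and 76 in Control livers. Mir493 had 1 and 0 in AT+HCB and 2 and 0 in HCB livers, against 291 and 25 in AT and 88 and 23 in Control livers. Mir673 had 0 reads in all 4 HCB-labelled libraries, against 182 and 19 in AT and 49 and 5 in Control livers. Reads over the rno-mir-679 row numbered 0 and 0 in AT+HCB and 4 and 0 in HCB livers, against 272 and 40 in AT and 106 and 55 in Control livers. The 5p arms of miR-494, miR-496 and miR-410 share the seed GGUUGUC, and those of miR-376b and miR-376c share UGGAUAU. In all, 15 of the 45 rows had any read in an HCB-labelled library and 35 had reads in all 4 unexposed libraries. Mir127, Mir136, Mir431, Mir433 and Mir3543-2 had 0 reads throughout. All of these rows lie within the span of Rtl1, where reads that fall in both would be ambiguous to the counter. Their 0 thus says nothing of the hairpins.

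Promoter sequence was at hand in RefSeq (GRCr8) for 8 of the 10 members, with 2 start sites for Igf2. The windows run from 250 bases before the start to 50 after it. Grb10 and Dlk1 held 44 and 45 CG dinucleotides, as many as 1.89% and 1.66% of the 33469 rat promoters in the table, whose median is 7; the other windows held 7 to 30. The motif GGGCGG, a GC box, counted on both strands with overlaps, occurred in 8 of the 9 windows and in 33.1% of all promoters; GGGGCCCC occurred in 1, that of Peg3, and in 0.858% of all; TATAAA occurred in none of the 9 and in 14.2% of all. Windows of 4 genes are printed 5′ to 3′ on the gene's strand, with GGGCGG or its complement in capitals: the CG-poorer Igf2 start, Mest, and the CG-dense Grb10 and Dlk1.
Igf2 (chr1:207250426-207250725, minus strand): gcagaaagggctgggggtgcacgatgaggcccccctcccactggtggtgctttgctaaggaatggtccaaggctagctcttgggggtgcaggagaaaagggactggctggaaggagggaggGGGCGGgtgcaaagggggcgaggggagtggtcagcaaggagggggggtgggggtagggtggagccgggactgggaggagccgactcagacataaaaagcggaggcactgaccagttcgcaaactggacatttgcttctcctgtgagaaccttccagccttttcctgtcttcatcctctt
Mest (chr4:60321564-60321863, plus strand): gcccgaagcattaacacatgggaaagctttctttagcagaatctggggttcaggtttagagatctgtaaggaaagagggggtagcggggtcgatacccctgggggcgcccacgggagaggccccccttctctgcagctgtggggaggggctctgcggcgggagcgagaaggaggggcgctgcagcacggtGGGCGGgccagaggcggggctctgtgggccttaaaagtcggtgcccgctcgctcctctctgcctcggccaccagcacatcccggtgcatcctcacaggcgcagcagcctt
Grb10 (chr14:90816338-90816637, minus strand): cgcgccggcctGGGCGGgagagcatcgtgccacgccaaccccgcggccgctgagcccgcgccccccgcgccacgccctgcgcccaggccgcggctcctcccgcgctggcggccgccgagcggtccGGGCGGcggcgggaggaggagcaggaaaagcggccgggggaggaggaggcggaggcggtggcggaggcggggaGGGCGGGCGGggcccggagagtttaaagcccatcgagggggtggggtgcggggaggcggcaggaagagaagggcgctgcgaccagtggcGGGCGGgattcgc
Dlk1 (chr6:134192347-134192646, plus strand): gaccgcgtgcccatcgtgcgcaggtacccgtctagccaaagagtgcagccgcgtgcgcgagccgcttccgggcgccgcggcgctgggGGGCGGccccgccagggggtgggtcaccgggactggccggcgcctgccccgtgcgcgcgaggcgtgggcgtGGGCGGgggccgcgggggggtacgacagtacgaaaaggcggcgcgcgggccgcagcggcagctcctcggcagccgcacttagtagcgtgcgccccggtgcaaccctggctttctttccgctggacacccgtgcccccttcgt
These matches describe the letters of the windows, and no methylation or factor binding was measured.

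Of 36 further imprinted symbols, 31 rows were in the table and 28 were tested; 16 were lower and 4 higher in every HCB-labelled library, where 25.0% of all genes tested were lower and 21.8% higher. Their median log2 fold change was -1.13 in HCB against Control and -0.93 in AT+HCB against AT. Gnas was counted by row. Its main row overlapped, at 109 ± 7.29 CPM in HCB-labelled and 82.5 ± 23.1 CPM in unexposed libraries. Its minor row is among the lower ones, at 0.397 ± 0.199 CPM in HCB-labelled and 0.994 ± 0.202 CPM in unexposed libraries. Among the lower ones, Klf14, a transcription factor gene, had 0 reads over both HCB libraries and 30 over both Control libraries, at least 4.23-fold lower against a floor of 6 reads over the group. Ins2, the insulin gene 20.3 kb from Igf2, had 0 reads over both HCB libraries and 16 over both Control libraries, at least 2.26-fold lower. The 4 higher genes were Slc38a4, an amino acid transporter, at 733 ± 114 CPM in HCB-labelled and 253 ± 44.3 CPM in unexposed libraries, and Slc22a18, Phlda2 and Copg2, chosen for naming after their values were seen.

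Of 15 listed genes of IGF signalling, 6 were lower and 2 higher in every HCB-labelled library (25.0% and 21.8% of all genes tested), with a median log2 fold change of -0.05 in HCB against Control. The binding proteins Igfbp2 and Igfbp1, which hold IGFs in the blood, were at 6.51 ± 2.75 and 31.9 ± 10.7 CPM in HCB-labelled libraries, against 1105 ± 274 and 1132 ± 378 CPM in unexposed libraries. Irs2, the insulin receptor substrate, had a log2 fold change of -3.39 (SE 0.30). Igfals, the subunit that stabilises circulating IGF1, went the other way, at 362 ± 98.5 CPM in HCB-labelled and 40.5 ± 19.2 CPM in unexposed libraries. Igf1, the postnatal counterpart of Igf2, was higher as well, at 2659 ± 435 CPM in HCB-labelled and 437 ± 105 CPM in unexposed libraries (SD, n = 4 each; named after its values were seen).

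Of 8 listed proteins that bind Igf2 and H19 RNA or regulate these genes, 5 were lower and 2 higher in every HCB-labelled library (25.0% and 21.8% of all genes tested), with a median log2 fold change of -3.46 in HCB against Control. Igf2bp1, a fetal Igf2 mRNA-binding protein, had 6 reads over both HCB libraries and 653 over both Control libraries, a ratio of Control to HCB of 91.9 with an interval of 31.2 to 448. Igf2bp2 had a log2 fold change of -5.00 (SE 0.33). Hmga2, which promotes Igf2bp2 transcription in the mouse, had 2 reads over both HCB and 48 over both Control libraries, a ratio of 20.3 with an interval of 3.31 to 835. Lin28b, which blocks let-7 maturation, had 0 reads over both HCB libraries and 14 over both Control libraries. It had 4 reads over both AT+HCB libraries and 16 over both AT libraries, a ratio of AT to AT+HCB of 3.75 with an interval of 0.749 to 36.3, which includes no difference. Zhx2 and Zbtb20, repressors of fetal genes in mouse liver, were the 2 higher ones, chosen for naming after their values were seen. Zhx2 stood at 33.8 ± 7.00 CPM in HCB-labelled and 6.66 ± 0.478 CPM in unexposed libraries, and Zbtb20 at 204 ± 52.3 CPM in HCB-labelled and 72.5 ± 6.43 CPM in unexposed libraries (SD, n = 4 each).

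Of 11 listed genes that keep imprints or set and remove DNA methylation, 8 were lower and 0 higher in every HCB-labelled library (25.0% and 21.8% of all genes tested), with a median log2 fold change of -0.96 in HCB against Control. Uhrf1, which brings the maintenance methyltransferase to replicated DNA, had a log2 fold change of -3.15 (SE 0.84), and Tet1, a demethylating oxidase, of -2.54 (SE 0.41). The methyltransferases Dnmt3a and Dnmt3b had values of -1.84 (SE 0.26) and -1.62 (SE 0.32) in HCB against Control, and of -1.89 (SE 0.26) and -0.38 (SE 0.31) in AT+HCB against AT. Zfp57, Zfp445 and Ctcf overlapped between the libraries, and Zfp57, which protects imprints in the mouse embryo, had log2 fold changes of 0.42 (SE 0.47) in HCB against Control and 0.84 (SE 0.46) in AT+HCB against AT (the 3 were named after their values were seen). Uhrf1 is also a gene of dividing cells, and all 5 proliferation markers were lower in the same libraries; their part in its level was not tested.

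Among kin of the members, Plag1 and Plagl2, the 2 relatives of Plagl1, were both lower, with log2 fold changes of -2.87 (SE 0.52) and -1.64 (SE 0.27) in HCB against Control. Of 5 further cyclin-dependent kinase inhibitors, Cdkn2d and Cdkn2c were lower at -1.58 (SE 0.52) and -1.35 (SE 0.36), and Cdkn2b was higher at 2.37 (SE 0.70). Lower and higher here mean in every HCB-labelled library, where 25.0% of all genes tested were lower and 21.8% higher. Cdkn1a and Cdkn1b, the closest relatives of Cdkn1c, overlapped between the libraries (Cdkn1b was chosen for naming after its values were seen). No gene of these lists was called in any atorvastatin contrast.

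The genes most like the members over the 8 libraries were sought among 12430 genes with a symbol and a mean of at least 1 CPM, by Pearson correlation of log2 CPM; since the libraries fall into separate sets, a high value mostly says that a gene differs between the same sets. Closest to the members' mean were Bex4 (r = 0.998), Add3 (0.998), Tox (0.998), LOC120093352 (0.997) and Akr1b7 (0.997). Closest to H19 were Igdcc4 (r = 0.998), Tox (0.997), LOC120093361 (0.996), LOC120093374 (0.996) and Igfbp2 (0.996). The LOC rows named here lie between Dlk1 and Dio3, among the small RNA rows described above. Tox, a nuclear protein of the HMG-box family, stood at 0.378 ± 0.0816 CPM in HCB-labelled and 21.8 ± 1.57 CPM in unexposed libraries, and Add3, a membrane skeleton protein, at 26.4 ± 2.14 CPM in HCB-labelled and 75.4 ± 4.54 CPM in unexposed libraries (SD, n = 4 each). A high correlation thus went with differences of very different size.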

How the data were processed

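RNA-seq of 8 rat livers was used as whole-number read counts per gene. The authors used fastp 0.23.4, STAR 2.7.10b with the mRatBN7.2 build, and DESeq2 1.42.1 in R 4.3.2, per the submitters' processing notes. Per the file headers, exon counts came from featureCounts 2.0.6 with Ensembl release 111, without strand or multimapping options. All deposited classes sum to 508 M reads, 2.04 times the stated 249 M, so mates appear to be counted singly, and a floor of 6 reads stands for 3 pairs over a group. Of the table's value columns 0 were left out.

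The test here was that of edgeR 4.0.16 in R 4.3.3 (TMM, filterByExpr on the 4 groups, robust quasi-likelihood fit, 1 model of 4 groups, 4 residual degrees of freedom, Benjamini-Hochberg adjustment over 16591 genes, adjusted p under 0.05 called). The biological coefficient of variation common to all genes was 0.295. Intervals of ratios are exact conditional binomial intervals on read pairs. These intervals and the floors cover counting error only. Intervals of log2 fold changes use the model's SE and a t distribution, so they also take in the spread between libraries. Their degrees of freedom, which borrow from other genes, were 8.94 for Plagl1 and 11.0 for the other members. The steps were tested on simulated data. The members and all lists were chosen with earlier results of these data known. All 10 members are named; from each list up to 4 genes with the largest size of log2 fold change in HCB against Control are eligible, and 5 genes by likeness. Not every eligible gene is described. Alternatives were DESeq2 1.42.0, its size factors, other filters on low counts, a fit without robustness, the 2 groups alone, a replicate block, halved counts, and libraries or chromosome Y left out. Sequences are RefSeq entries on GRCr8, and coordinates of genes are those of the table. Python 3.11.15 and matplotlib 3.10.9 were used.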

Additional observations from a re-analysis of the deposited data

How the results depend on the processing

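All 10 members were lower in every HCB-labelled library under each of the 17 alternatives that give a level per library, and the other imprinted genes lower in every one numbered 16 to 18. The members were chosen on this difference. Apart from shifts in scaling, leaving out a library can only narrow the ranges compared. The count of members is therefore no support for the difference. The members' median log2 fold change lay between -4.92 and -4.16 in HCB against Control and between -5.33 and -4.10 in AT+HCB against AT over the libraries left out in turn, and within these ranges under the other alternatives. For atorvastatin, edgeR called 0 genes in each contrast; DESeq2 called 2 (AT against Control), 49 (AT+HCB against HCB), 4 (average) and 5 (interaction); with no filter on low counts edgeR called 76, 179, 140 and 70, with 1 member, Plagl1, in AT against Control; without chromosome Y it called 1 gene in AT+HCB against HCB. Leaving out 1 library gave 0 to 33, 0 to 6, 0 to 9 and 0 to 5 calls in these contrasts, the highest without AT replicate 1 except in AT+HCB against HCB, where 6 came without HCB replicate 2 and 6 without AT+HCB replicate 2. The cause was not tested.

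Deviations from group means correlated at 0.27 between same-numbered AT and Control libraries, and at -0.05 to 0.05 in the other pairs of groups. These correlations cannot show whether the replicate numbers pair the rats. With the replicate block 0 genes were called in each atorvastatin contrast. Signs of uncalled atorvastatin values turned as follows. With the replicate block Grb10 was -0.049 in AT against Control and Peg3 0.019 on average. Without both libraries of most reads outside exons Grb10 was -0.97 in AT against Control and -0.34 on average. With 1 library left out at a time the signs below changed at least once. In AT against Control the ranges were -0.090 to 0.28 for Cdkn1c, -0.97 to 0.15 for Dlk1, -0.76 to 0.53 for Grb10, -0.036 to 0.33 for H19, -0.15 to 0.28 for Igf2r, -0.20 to 0.087 for Mest, -0.40 to 0.54 for Peg10, -0.51 to 0.17 for Peg3 and -0.54 to 2.26 for Plagl1. In AT+HCB against HCB the ranges were -0.069 to 0.76 for Cdkn1c, -0.81 to 0.40 for Dlk1, -0.11 to 0.69 for Mest, -0.14 to 0.51 for Peg3 and -1.30 to 0.44 for Plagl1. For the average effect the ranges were -0.23 to 0.42 for Grb10, -0.44 to 0.065 for H19, -0.087 to 0.31 for Mest, -0.17 to 0.18 for Peg3 and -0.36 to 1.05 for Plagl1. No other value of a member changed sign in these 3 contrasts.

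Depth limits Dlk1, Peg10 and Plagl1, with 6 to 38 reads per HCB-labelled group.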
